A study of Mus musculus with 34 samples.

Results

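The transporters that carry thyroid hormone across the cell membrane and the proteins that bind it in plasma and in the cytosol were followed in the livers of mouse pups whose thyroid hormone supply had been changed for a short time. The 9 genes were Slc16a10, Slc7a8, Slc10a1, Slco1a1, Slco1a4, Slco1b2, Ttr, Serpina7 and Crym. A gene was taken as measured when a probe of the array, other than a control probe, carried a RefSeq accession of that gene. Of the 9 genes, 8 had such a probe, and they had 9 probes in all because Slc16a10 had 2. Slco1b2 was not analysed here. These 8 genes stand among 16535 genes that the RefSeq names of the array identify, and the 9 probes among 41174 probes tested. The probe named AK165240, which a table of the study lists as Slc16a10 but which carries no RefSeq accession, is given beside the genes and is in none of their counts.

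Liver RNA of C57BL/6 pups at PND 15 was labelled with Cy5 and hybridised against a universal mouse reference RNA labelled with Cy3, so each level below is the log2 ratio of a pup's liver to that reference, and a difference of 1 on this scale is a doubling. All animals drank water with 1% sucrose. Control pups received saline. In the hypo group the dams drank water with methimazole at 0.05% and perchlorate at 1% for 3 days, and the pups received saline; both agents block hormone synthesis, methimazole at thyroid peroxidase and perchlorate at iodide uptake. Hyper pups had no goitrogen and were injected with 50 µg T4 and 5 µg T3 per 100 g body weight 4 hours before collection. In the hypo+ group the dams drank the same goitrogens and the pups were injected with 20 µg T4 and 2 µg T3 per 100 g. The hypo+ pups had been chosen among injected pups by their serum T4, which limits them as a sample of all treated pups, and every goitrogen reached the pups through the dam. The 34 arrays held 1 pup each: in males there were 4 control, 4 hypo, 5 hyper and 4 hypo+, in females 4 control, 5 hypo, 5 hyper and 3 hypo+. The labels name each pup by an animal number and do not state its litter or that the pups came from separate litters, so the p-values below measure the spread between these samples. The study analysed the sexes apart to remove correlation through the dam, and describes the samples of a sex as independent. Within a sex, no pup shared with another the first digits of the animal number, which are taken as a litter below.

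Thyroid hormones do not cross membranes freely. The amino acid carriers Slc16a10 (MCT10) and Slc7a8 (LAT2), the bile acid carrier Slc10a1 (NTCP) and the organic anion carriers of the Slco1a and Slco1b families (OATPs) can all move T4, T3 or their metabolites, and the liver, which deiodinates and conjugates much of the circulating hormone, expresses several of them. In plasma the hormone travels bound to thyroxine-binding globulin (Serpina7), transthyretin (Ttr) and albumin, all secreted by hepatocytes. Inside the cell Crym, the mu-crystallin, holds T3 in the cytosol in an NADPH-dependent manner.

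The 250 bases before the annotated start of Serpina7, whose probe carried the main difference found, and of its organic anion carrier companions Slco1a4 and Slco1a1 are shown so that their letters can be set beside the classical half-site bound by thyroid hormone receptors. They are RefSeq windows on GRCm38.p6, all on the minus strand, at chrX:139085237-139085486 for Serpina7 (the first of 2 start sites listed), chr6:141856221-141856470 for Slco1a4 and chr6:141946963-141947212 for Slco1a1, read 5′ to 3′ with matches to the half-site AGGTCA on either strand in capitals.
Serpina7: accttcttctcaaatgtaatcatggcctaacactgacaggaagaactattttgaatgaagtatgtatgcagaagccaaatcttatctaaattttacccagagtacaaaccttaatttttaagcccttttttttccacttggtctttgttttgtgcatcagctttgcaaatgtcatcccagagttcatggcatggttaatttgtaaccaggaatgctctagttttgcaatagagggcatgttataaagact
Slco1a4: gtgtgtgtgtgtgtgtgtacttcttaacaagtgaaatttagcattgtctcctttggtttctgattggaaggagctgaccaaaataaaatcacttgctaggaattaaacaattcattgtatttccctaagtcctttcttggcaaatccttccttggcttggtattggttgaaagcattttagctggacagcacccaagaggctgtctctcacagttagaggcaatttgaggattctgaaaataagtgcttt
Slco1a1: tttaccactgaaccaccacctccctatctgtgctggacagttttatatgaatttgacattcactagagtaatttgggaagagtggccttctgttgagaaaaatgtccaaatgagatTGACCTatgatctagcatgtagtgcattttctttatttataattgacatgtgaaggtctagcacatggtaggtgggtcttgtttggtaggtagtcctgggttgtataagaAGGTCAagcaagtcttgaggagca
The half-site had no match in the windows of Serpina7 and Slco1a4 and 2 matches in that of Slco1a1, which begin 134 and 24 bases before the start. Of 32851 RefSeq windows of this length, 14% held the half-site and 0.0152% held the direct repeat spaced by 4 bases, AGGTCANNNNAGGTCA, which contains the half-site. Windows were listed for 7 of the 9 genes. Besides Slco1a1, only Slco1b2 among these 7 had a half-site, 1 match, and none held the direct repeat.

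Median Cy5 signals lay between 146 and 199 over the 34 arrays and median Cy3 signals between 64 and 100, and 60.8% to 79.4% of probes were well above background in Cy5. The number of arrays limits the precision. The arrays came from 11 slides scanned on 6 days. All 6 matched hepatocyte markers were well above background in Cy5 on every array, and the mean log2 ratio over them ranged from 3.94 to 5.27 in control, 4.17 to 5.57 in hypo, 4.17 to 5.28 in hyper and 4.72 to 5.43 in hypo+ livers. The 10 pancreatic acinar markers set 3 control arrays apart, with mean log2 ratios of 4.74 (male 832), 4.36 (male 522) and 3.39 (female 831); no hypo or hyper array exceeded 0.77 and the highest hypo+ array was at 1.99. Leaving out these 3 arrays took the log2 difference between hypo and control from 0.03 to 0.22 for Ttr, from -0.14 to 0.01 for Slc10a1 and from -0.18 to -0.29 for Slc7a8 (in males from -0.19 to -0.43), none of them called either way. Arrays 832 and 831 were both of scan day 6, on which Ttr ran from 5.90 to 6.30 and Slc10a1 from 4.92 to 5.54. With scan day as a block and all arrays kept, the differences were 0.04 for Ttr and -0.06 for Slc10a1. The male Slc7a8 value rested on control males 881 (2.13) and 391 (1.23). Whether the pancreatic markers or the scan day moved these values was not tested. In whole liver, fewer cells of a type and less RNA per cell cannot be told apart. Among 5 genes known to respond to thyroid hormone in liver, Dio1 (the type 1 deiodinase) was lower in hypo than in control livers by a log2 difference of -1.62 (SE 0.18, adjusted p = 2.74e-06, limma over all 34 arrays), as were Thrsp (-1.51, SE 0.28) and Me1 (-0.44, SE 0.08), while the differences of Klf9 and Thrb were not called.

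Against control, none of the 9 member probes passed the test. The only member called in the fit of all arrays was Serpina7, which was lower in hyper than in hypo livers. Of the 9 probes, 8 were well above background in Cy5 on all 34 arrays and that of Slco1a1 on none. With the sexes analysed apart, none of the 9 probes passed an adjusted p of 0.05 (limma, Benjamini-Hochberg over all probes) against control. In males this held for hypo (0.0971% of all probes called), hyper (0.0753%) and hypo+ (0.0267%), and for hypo+ against hypo (0.369%). In females it held for hypo (0.155%), hyper (0.158%), hypo+ (0.0219%) and hypo+ against hypo (0.556%). At an unadjusted p under 0.05 there were 0 of 9 probes in every male comparison, beside 2.98% to 9.18% of all probes. In females there was 1 for hypo against control (Serpina7, beside 4.72%) and 1 for hyper against control (Slco1a4, beside 6.15%). With so small a share of all probes called, 0 of 9 lies near the background and is no result about these genes.

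With both sexes in 1 fit of 34 arrays, in which pups whose animal numbers share their first digits were treated as littermates, 0 of 9 probes were called for hypo (0.95% of all probes), hyper (0.692%) and hypo+ (0.588%) against control, 0 for hypo+ against hypo (2.72%) and 0 for hypo+ against hyper (2.36%). Between hyper and hypo, 1 of 9 was called against a background of 5.31%, and that probe was Serpina7. At an unadjusted p under 0.05 there were 5 of 9 probes between hyper and hypo (14% of all probes) and 4 between hypo+ and hyper (14.5%). There were 2 for hypo+ against control, 1 each for hypo against control (7.85%) and hypo+ against hypo (12.9%), and 0 for hyper against control (6.44%). The share of all probes for hypo+ against control lay between 7.85% and 12.9%. The median log2 difference over the 9 probes was -0.013 between hyper and hypo, beside -0.005 over all probes, and 0.025 between hypo and control, beside 0 over all probes. The comparisons share groups, so their values are not independent of each other.

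**Figure D1:**
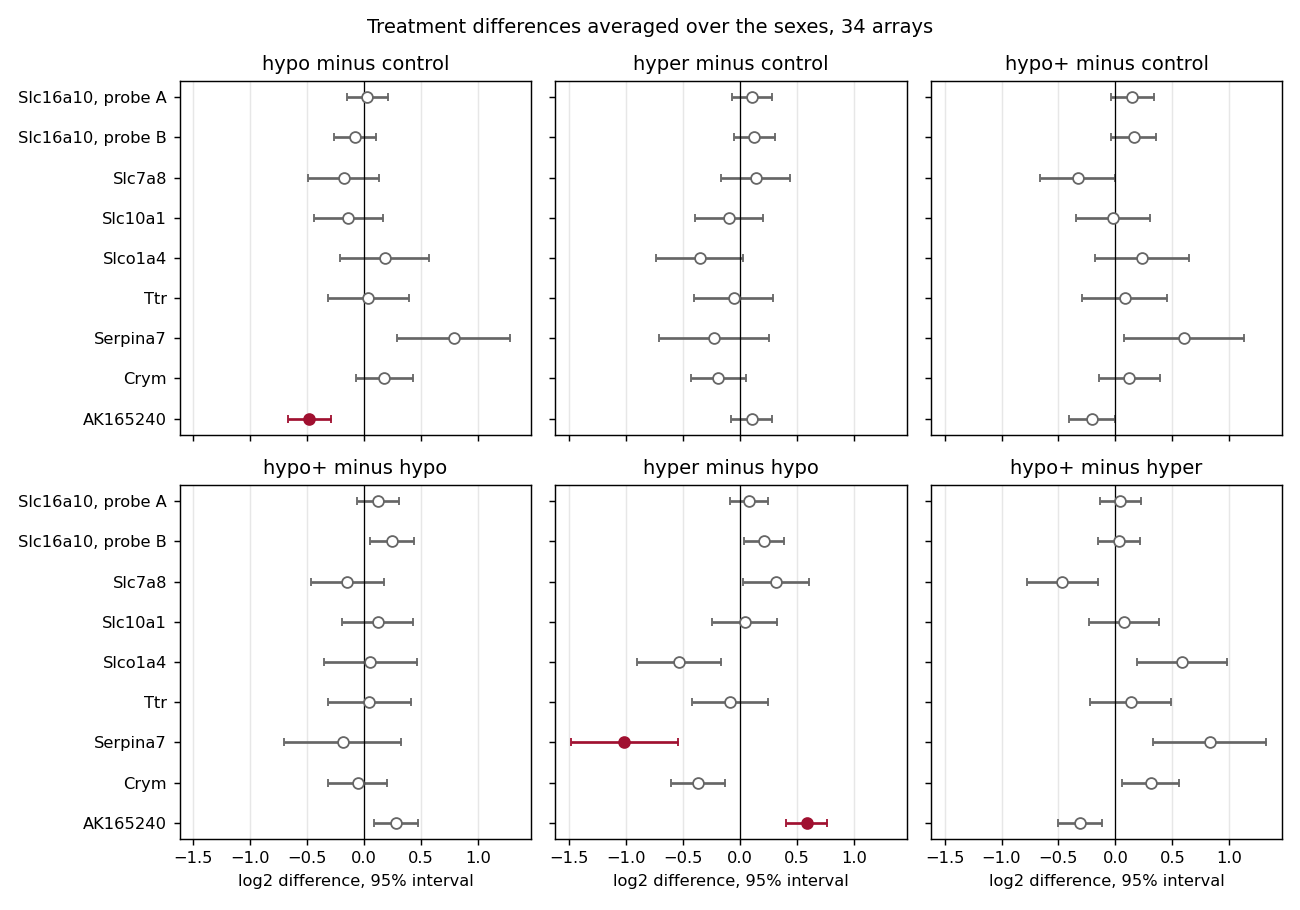
Log2 differences (horizontal axis) of 8 member probes and AK165240 for the 6 pairs of treatments in the fit of 34 arrays, averaged over the sexes; points are estimates, bars are 95% intervals, and filled red points have an adjusted p under 0.05. Among the members only Serpina7 between hyper and hypo is filled, at -1.01; Slco1a1 is left out because it was not well above background.

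Serpina7 encodes thyroxine-binding globulin, the plasma protein with the highest affinity for T4, and lies on chromosome X. Its level in control males was 3.48, 3.53, 3.76 and 3.78, and in control females 3.47, 3.70, 3.83 and 4.22. In hypo males it was 3.27, 4.58, 4.79 and 4.80, and in hypo females 4.14, 4.16, 4.26, 5.09 and 5.64. Of the 9 hypo pups, 6 lay above every control pup; females 575 and 893 lay just under the highest control female, and male 891, at 3.27, was lower than every control.

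In hyper males Serpina7 was 2.81, 3.08, 3.43, 3.73 and 3.97, and in hyper females 3.07, 3.51, 3.73, 3.79 and 3.84. In hypo+ males it was 3.70, 3.75, 4.90 and 4.94, and in hypo+ females 4.01, 4.08 and 4.87. All 5 hyper females lay below all 5 hypo females, whereas in males the 2 groups overlapped through pup 891, and the hypo+ pups overlapped the hyper males and both hypo groups. How many of all probes separate groups in this way was not counted, here or for the separations given below.

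**Figure D2:**
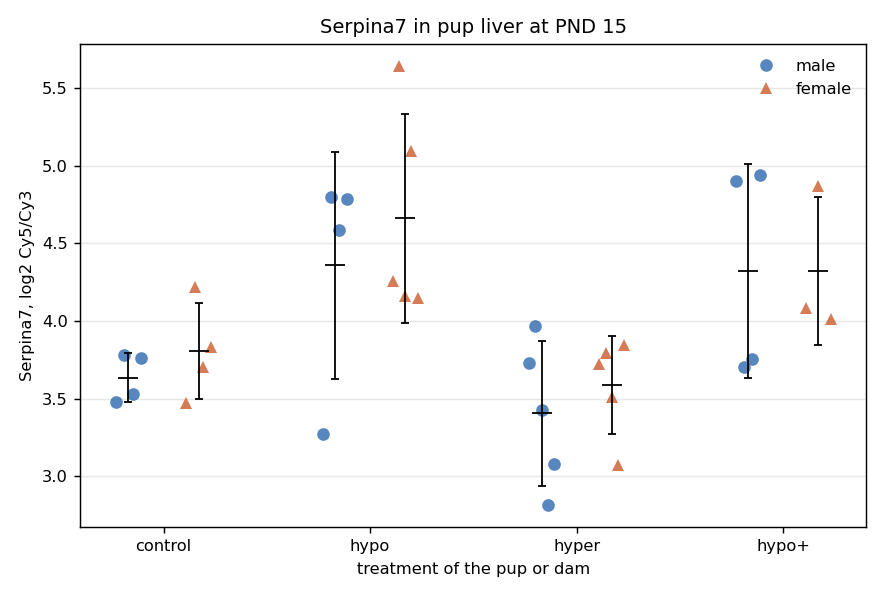
Serpina7 in each of the 34 pups as log2 Cy5/Cy3 (vertical axis) by treatment; blue circles are males, orange triangles are females, and black bars give the mean and SD of each sex and treatment. The hyper pups reach 3.97 at most, and 8 of the 9 hypo pups lie above that.

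Serpina7 was lower in hyper than in hypo livers by a log2 difference of -1.01 (SE 0.23, 95% interval -1.48 to -0.55, adjusted p = 0.0046 by limma), which is 2.02-fold. This fit used 1 litter correlation for all probes, 0.0714, over 20 inferred litters. The correlation of Serpina7 alone was not estimated, so its SE and p may count littermates as more independent than they were. The mean levels were 3.50 in hyper and 4.51 in hypo livers, with 4.32 in hypo+ and 3.72 in control livers between them. No neighbours in this order were called different: the log2 difference was -0.19 (SE 0.25, adjusted p = 0.84) between hypo+ and hypo, 0.60 (SE 0.26, adjusted p = 0.39) between hypo+ and control, and -0.23 (SE 0.24, adjusted p = 1) between hyper and control. Against control, hypo livers were higher by 0.79 (SE 0.24, unadjusted p = 0.00297), which missed the threshold at an adjusted p of 0.16. Without hypo male 891 that difference was 0.96 and its adjusted p 0.030, from Cy5 alone it was 1.01 (adjusted p = 0.00524), without the 3 control arrays with pancreatic markers 0.87 (adjusted p = 0.312), and with the scanner's log ratio 0.10 (adjusted p = 0.999). Hypo+ livers were above hyper livers by 0.83 (SE 0.24, adjusted p = 0.067). This difference passed the threshold without hypo male 891 (adjusted p = 0.0416) or hypo+ male 454 (adjusted p = 0.0414). It also passed without hypo female 721 (adjusted p = 0.0467), from Cy5 alone (adjusted p = 0.0331) and among probes above the negative controls (adjusted p = 0.0445). Settings without a call included slide as a block (0.65, adjusted p = 0.208) and the scanner's log ratio (0.48, adjusted p = 0.192). Background correction by normexp (0.96, adjusted p = 0.111) and median centring (0.61, adjusted p = 0.532) gave no call either.

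The Serpina7 difference between hyper and hypo held with each of the 34 arrays left out in turn, between -1.19 and -0.90. Within the 6 scan days it was -0.90, -2, -0.53, -0.68 and -1.34 on scan days 2 to 6 and 0.45 on scan day 1. Scan days 1 and 4 held 1 pup of each of these groups, and the hypo pup of scan day 1 was male 891. The reference channel was dim for this probe: Cy3 was well above background on 29 of 34 arrays, at a median of 56 in hypo and 43.5 in hyper livers, while Cy5 was well above background on all 34, at a median of 1729 in hypo and 871.5 in hyper livers. Cy5 alone gave a log2 difference of -1.23 (adjusted p = 4.25e-05). The log ratio of the scanner software, which subtracts background in both channels, gave -0.27 (adjusted p = 0.58) and no call. Background correction by normexp gave -1.27 (adjusted p = 0.00708) and median centring -0.79 (adjusted p = 0.0282), both called. The authors' processed values gave -1.0 (adjusted p = 0.00372). Of 10 alternative settings, 9 gave a call.

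Within each sex, the same comparison of hyper with hypo was added after the fit of all arrays had been seen. In males 0 of 9 probes were called (1.39% of all probes), with Serpina7 at -0.96 (SE 0.33, adjusted p = 0.27); without male 891 it was -1.32 and passed, with an adjusted p of 0.0382. In females 2 of 9 were called (2.5% of all probes), Serpina7 at -1.07 (SE 0.27, adjusted p = 0.045) and Slco1a4 at -0.78 (SE 0.18, adjusted p = 0.025). The Serpina7 call in females was lost when any 1 of 11 of the 17 arrays was left out, at values between -0.83 and -1.13, and the Slco1a4 call when any 1 of 6 was left out, at values between -0.73 and -0.78. No difference between the sexes in the response to hypo, hyper or hypo+ was called for the 9 probes, which says nothing of these genes in particular (0 of 41174 probes called in each interaction, 0% of all probes, with 534, 633 and 656 at an unadjusted p under 0.05 and no member among them).

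Slco1a4 (OATP1A4) is an organic anion carrier of the sinusoidal membrane. In females it was 3.92, 4.01, 4.10 and 4.25 in control, 4.10, 4.11, 4.17, 4.28 and 4.39 in hypo, 3.28, 3.28, 3.43, 3.43 and 3.73 in hyper and 3.65, 4.25 and 5.07 in hypo+ livers. All 5 hyper females lay below all control and all hypo females. In males it was 3.72, 3.88, 4.04 and 4.51 in control, 3.74, 3.79, 4.50 and 4.99 in hypo, 3.61, 3.78, 3.95, 4.03 and 4.51 in hyper and 3.56, 3.81, 4.74 and 4.75 in hypo+ livers, and the male groups overlapped throughout.

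Against control, hyper females had a log2 difference in Slco1a4 of -0.64 (SE 0.19, unadjusted p = 0.0037, adjusted p = 0.39) and hyper males of -0.06 (SE 0.29, adjusted p = 1). The difference between these 2 effects was -0.58 (95% interval -1.29 to 0.14, unadjusted p = 0.109). Leaving out hypo+ female 601, at 5.07, took the standard error from 0.189 to 0.118 and brought the female comparison with control to an adjusted p of 0.0364. Averaged over the sexes, hyper lay below hypo by -0.53 (SE 0.18, adjusted p = 0.093), and this difference was also negative within each of the 6 scan days. It was called with scan day as a block (-0.55, adjusted p = 0.0395), with slide as a block (-0.52, adjusted p = 0.015), from Cy5 alone (-0.62, adjusted p = 0.00509) and without hypo male 891 (-0.62, adjusted p = 0.0451). Settings in which it was not called included the scanner's log ratio (-0.50, adjusted p = 0.377) and the authors' processed values (-0.51, adjusted p = 0.122). Background correction by normexp (-0.75, adjusted p = 0.0554) and median centring (-0.48) also gave no call. Hypo+ against hyper stood at 0.59 (SE 0.19, adjusted p = 0.105), called only when hypo+ female 543 was left out (0.75, adjusted p = 0.0315). With slide as a block the difference between hypo+ and hyper was 0.23 (adjusted p = 0.559).

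Slco1a1 (OATP1A1), a close relative of Slco1a4 that is abundant in adult mouse liver, was not well above background at this age. Its Cy5 signal lay between 78 and 99 on the 34 arrays and was not well above background on any of them, so no fold is given and nothing can be said of treatment. Slc10a1, the sodium-dependent bile acid carrier, was well above background on every array and ranged from 4.44 to 5.54. Its means over both sexes were 4.98 ± 0.35 (SD, n = 8) in control, 4.85 ± 0.36 (n = 9) in hypo, 4.89 ± 0.31 (n = 10) in hyper and 4.94 ± 0.18 (n = 7) in hypo+ livers. The 6 differences between treatments lay within -0.14 and 0.12, and the widest of their 95% intervals ran from -0.34 to 0.30, for hypo+ against control.

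Slc7a8, the light chain of an amino acid exchanger that also moves iodothyronines, ranged from 0.82 to 2.37. In hypo+ livers it was 0.82, 1.00, 1.07 and 1.1 in males and 0.83, 1.17 and 1.66 in females, and the 4 hypo+ males lay below all control males (1.17, 1.21, 1.23 and 2.13) and all hyper males (1.34, 1.37, 1.47, 1.60 and 2.37). The highest control male and the highest hyper male, 881 and 864, were on the same slide, the only one of scan day 1. In the fit of all arrays hypo+ lay below hyper by -0.47 (SE 0.15, adjusted p = 0.102) and hyper above hypo by 0.32 (SE 0.14, adjusted p = 0.29). Without hypo+ female 543 the first of these passed at -0.57 (adjusted p = 0.0417). With scan day as a block it was -0.34 (adjusted p = 0.119) and with slide as a block -0.31 (adjusted p = 0.274), neither called. The second passed with scan day (0.36, adjusted p = 0.0415) or slide (0.35, adjusted p = 0.0454) as a block, but not with background correction by normexp (0.23, adjusted p = 0.562).

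Ttr encodes transthyretin, a plasma carrier of T4 and, with retinol-binding protein, of retinol, and its gene lies on chromosome 18. Its mean level was 5.49 ± 0.36 (SD, n = 8) in control, 5.52 ± 0.41 (n = 9) in hypo, 5.44 ± 0.28 (n = 10) in hyper and 5.57 ± 0.34 (n = 7) in hypo+ livers. The scan day set Ttr apart more than any treatment did. The 8 arrays of scan day 6, 1 from each sex and treatment, ran from 5.90 to 6.30, and the other 26 from 4.93 to 5.54, so that the highest Ttr of all 8 groups was on that day. With scan day as a block the standard error of the log2 difference between hypo and control fell to 0.054 from 0.174, around a value of 0.04, and that between hyper and hypo to 0.049 from 0.164, around -0.08 (adjusted p = 0.42). The same 8 arrays held the highest Slc10a1 in 7 of 8 groups and the highest Serpina7 and Crym in 6 of 8 each. With scan day as a block, the Serpina7 difference between hyper and hypo was -1.01 (adjusted p = 0.000993).

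Crym, the cytosolic T3-binding protein, was tight in hyper livers, at 1.81, 1.84, 1.84, 1.99 and 2.09 in males and 1.86, 1.88, 1.89, 1.92 and 1.96 in females. In hypo+ livers it was 2.16, 2.17, 2.18 and 2.27 in males and 2.16, 2.2 and 2.37 in females, so that all 7 hypo+ pups lay above all 10 hyper pups. The share of all probes that separate these groups was not counted, so this is no result about Crym in particular. The hypo pups ranged more widely, from 1.52 to 2.79 (the lowest, female 316, had the highest Cy5 signal of all 34 arrays, 584.5, and also the highest Cy3 signal, 156.5, beside a median of 47), and the control pups from 1.78 to 2.5, both overlapping the other groups. The log2 difference was 0.31 (SE 0.12, adjusted p = 0.21) between hypo+ and hyper and -0.37 (SE 0.12, adjusted p = 0.063) between hyper and hypo. It was -0.27, -0.57, 0.17, -0.47, -0.37 and -0.70 within scan days 1 to 6. It was called from Cy5 alone (-0.46, adjusted p = 2.24e-06), when slide (adjusted p = 0.0283) or scan day (adjusted p = 0.0151) was a block, when probes below the negative controls were left out (adjusted p = 0.042), when the litter was left out of the fit (adjusted p = 0.0476), and without the 3 control arrays with pancreatic markers (adjusted p = 0.0433), hypo male 723 (-0.41, adjusted p = 0.0382), control female 831 (adjusted p = 0.0455) or hypo female 316 (-0.46, adjusted p = 0.00119). The difference was not called with the scanner's log ratio (-0.30, adjusted p = 0.774) or with median centring (-0.27). Nor was it called with the authors' processed values (-0.35, adjusted p = 0.0644) or with background correction by normexp (-0.54, adjusted p = 0.0546). The Cy3 signal of Crym was well above background on 30 of 34 arrays.

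**Figure D3:**
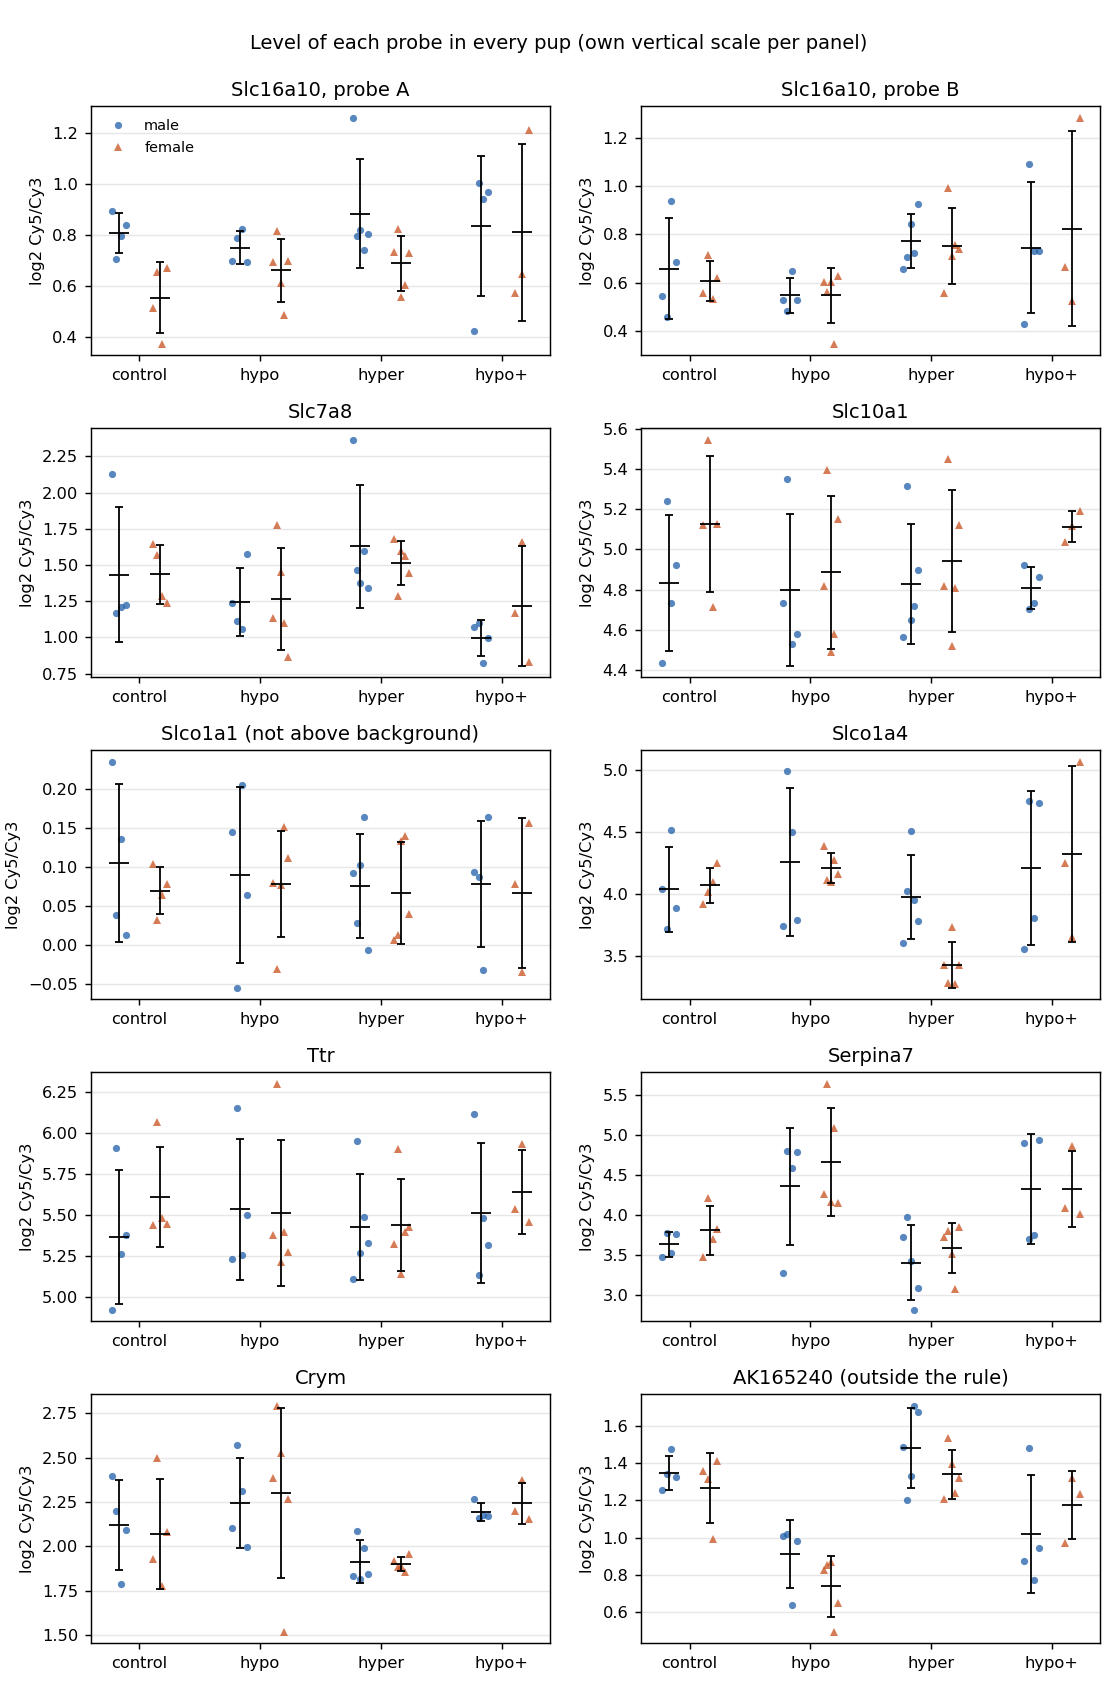
Log2 Cy5/Cy3 (vertical axis, own scale per panel) of the 9 member probes and of AK165240 in every pup by treatment; blue circles are males, orange triangles are females, and black bars give the mean and SD of each sex and treatment. In Serpina7 most hypo pups lie above the hyper pups, in Crym all hypo+ pups lie above all hyper pups, and in AK165240 all hypo pups lie below all hyper pups.

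Slc16a10 (MCT10), an aromatic amino acid carrier that moves T3, was measured by 2 probes that share an accession, called A and B here in the order of their identifiers, A_52_P527917 and A_52_P527924. Probe A ranged from 0.37 to 1.26 and probe B from 0.35 to 1.28. Between hypo and control probe A differed by 0.03 (SE 0.09) and probe B by -0.08 (SE 0.09). Probe B was higher in hyper than in hypo livers by 0.21 (SE 0.09, adjusted p = 0.20) and in hypo+ than in hypo livers by 0.24 (SE 0.09, adjusted p = 0.20), and the corresponding values of probe A were 0.08 (SE 0.08) and 0.12 (SE 0.09). Cy3 was well above background on 18 of 34 arrays for probe A and on all 34 for probe B. Neither probe was called in any comparison as fitted, and neither was their mean; with slide as a block probe B was called between hyper and hypo (0.20, adjusted p = 0.0253).

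The probe AK165240 behaved otherwise. It was 1.26, 1.32, 1.34 and 1.48 in control males, 0.99, 1.31, 1.36 and 1.41 in control females, 0.64, 0.98, 1.01 and 1.02 in hypo males and 0.49, 0.65, 0.83, 0.85 and 0.87 in hypo females. In hyper livers it was 1.20, 1.33, 1.49, 1.68 and 1.71 in males and 1.21, 1.24, 1.32, 1.40 and 1.54 in females, and in hypo+ livers 0.77, 0.88, 0.94 and 1.49 in males and 0.97, 1.23 and 1.32 in females. The hypo pups lay below all control pups of their own sex and below all hyper pups of both sexes, and the hypo+ pups overlapped every other group.

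AK165240 was lower in hypo than in control livers by -0.48 (SE 0.09, adjusted p = 0.00377), higher in hyper than in hypo livers by 0.59 (SE 0.09, adjusted p = 2.41e-05) and not called between hypo+ and hypo (0.28, SE 0.09, adjusted p = 0.135). Within scan days the difference between hypo and control was between -0.25 and -0.72 on the 5 days that held both groups. Without the 3 control arrays with pancreatic markers it was -0.45 with an adjusted p of 0.0651, with background correction by normexp it was -0.40 with an adjusted p of 0.128, and with median centring it was -0.40 with an adjusted p of 1. The probe sequences were not used here, so whether this transcript is read from the Slc16a10 gene was not tested.

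**Figure D4:**
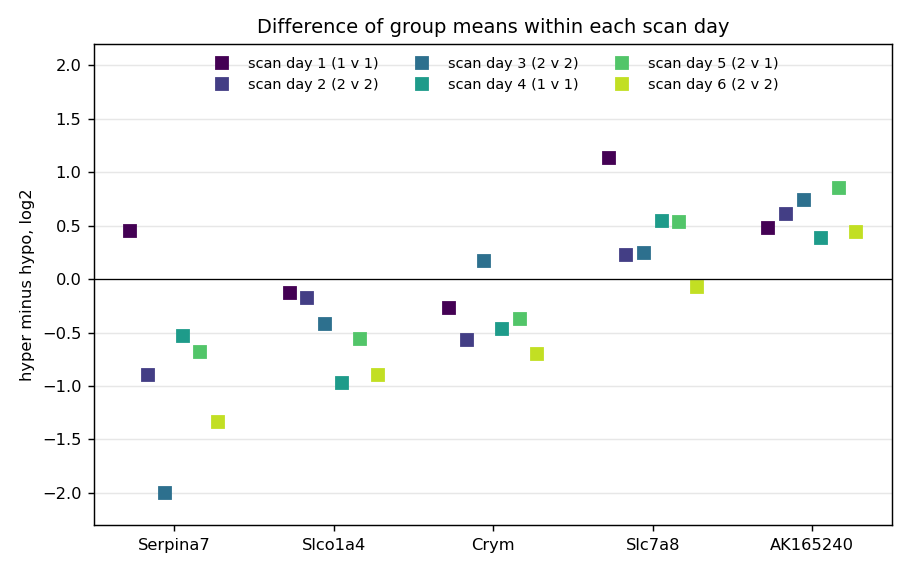
Difference of the mean log2 Cy5/Cy3 of hyper and hypo pups (vertical axis) within each of the 6 scan days for 4 member probes and AK165240; each square is 1 scan day, and the legend gives the number of hyper and hypo pups on it. AK165240 is above 0 on all 6 days, Slco1a4 below 0 on all 6, and Serpina7 below 0 on 5 of 6.

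Between the sexes, averaged over the 4 treatments, 0 of 9 probes were called (0.112% of all probes). An unadjusted p under 0.05 was found for 1 of 9, beside 10.3% of all probes. Slc16a10 probe A was lower in females by -0.14 (SE 0.06, unadjusted p = 0.0224, adjusted p = 0.405). Slc10a1 differed by 0.20 in the other direction (SE 0.10, unadjusted p = 0.0538).

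Other genes of hormone transport and binding were taken as 17 genes, among them the heavy chain Slc3a2, further Slco genes, albumin and the retinol carrier Rbp4. Against control 0 of 17 were called for hypo (0.95% of all probes), hyper (0.692%) or hypo+ (0.588%), and 0 between hyper and hypo (5.31%, limma). With such shares, 0 of 17 lies near the background and is no result about the list. At an unadjusted p under 0.05 there were 0, 0, 1 and 3 in these comparisons, beside 6.44% to 14% of all probes. The 3 were between hyper and hypo, where the share of all probes was 14%. The medians against control were -0.035 for hypo and -0.013 for hyper, beside -0.002 and -0.008 over all genes. Between hypo+ and hypo 1 of 17 was called, beside 2.72% of all probes, which is no result about the list as a whole. That gene was Slc17a4, an organic anion carrier reported to move thyroid hormone. Slc17a4 was higher in hypo+ livers by 0.38 (SE 0.09, adjusted p = 0.0203 by limma). The median over the list was 0.125 beside -0.013 over all genes.

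Among 12 uptake and export carriers of the hepatocyte, 2 were called between hyper and hypo (5.31% of all probes) and 2 between hypo+ and control (0.588%). There was 1 each between hypo and control (0.95%), hyper and control (0.692%), hypo+ and hypo (2.72%), and hypo+ and hyper (2.36%). The genes were Abcc3 and Slc51b throughout. Abcc3 (MRP3), an exporter of conjugates into blood, was lower in hyper than in hypo livers by -0.82 (SE 0.14, adjusted p = 0.000126) and higher in hypo than in control livers by 0.60 (SE 0.14, adjusted p = 0.0315). Slc51b, the beta subunit of the basolateral organic solute transporter, was higher in hyper than in hypo livers by 0.66 (SE 0.13, adjusted p = 0.0011), higher in hyper than in control livers by 0.55 (SE 0.13, adjusted p = 0.0469) and higher in hypo+ than in hypo livers by 0.72 (SE 0.14, adjusted p = 0.00254). Abcc3 had a second, dimmer probe that disagreed in size: its difference between hyper and hypo was -0.10 (SE 0.06, adjusted p = 0.46) and was not called. The other 10 were not called in these comparisons, and the median over the 12 genes between hyper and hypo was -0.056 beside -0.008 over all genes.

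Likeness of pattern was measured as the root mean square distance between the 8 centred group means of 2 probes, over the 16527 genes outside the 9 with each gene taken by its brightest probe. Serpina7 and AK165240 were chosen for this after their values were seen. The genes nearest to Serpina7 were Vldlr (0.12), Nqo1 (0.125) and Abcc3 (0.142), and those nearest to AK165240 were Nmral1 (0.064), Abca3 (0.07) and Hebp2 (0.071). Vldlr is a lipoprotein receptor and Nqo1 a quinone reductase.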

How the data were processed

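Median spot intensities of both channels, local background intensities and the log10 ratio of the scanner software were deposited by the authors as scanner output of Feature Extraction 10.1.1.1, and a table of log2 values processed by the authors was used as an alternative. Scaling and centring of that table are not given in the sources used here. The median intensities were normalised within each array by loess without background subtraction, control spots and spots marked as outliers were left out, and spots of a probe were averaged, giving 41174 probes. Groups came from the labels. Following the study, the sexes were fitted apart, with limma 3.58.1 in R 4.3.3 in place of MAANOVA, and the Benjamini-Hochberg adjustment ran over every probe, with a threshold of 0.05. A second fit held all 34 arrays with litter as a random block (correlation 0.0714); pups with the same leading digits in their animal number were taken as a litter. Genes were named through 16806 of 33541 systematic names that matched 1 RefSeq symbol. The named probes were all probes of the genes listed at the opening, AK165240, and those called in the lists. The genes and lists were chosen with earlier results of these data known. The authors' own start of goitrogen exposure is PND 12 in the methods and PND 13 in the series description. Alternatives were normexp, median centring, the authors' log2 values, the scanner's log ratio, Cy5 alone, only probes above the 153 negative-control spots on every array, the mean of both Slc16a10 probes, slide or scan day as a block, no litter, only the compared groups, and each array left out; the comparison of hyper with hypo within a sex, the values within scan days, and the fit without the 3 control arrays with pancreatic markers were chosen after seeing the data.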

Additional observations from a re-analysis of the deposited data

Results flagged for a closer look

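Within groups of 4 or 5 pups, 10 of 63 sets of values had 1 pup far from the others, where chance gives about 1 in 20. Serpina7 in hypo male 891 was 3.27, beside 4.58 to 4.80 in the other hypo males. Slc7a8 in control male 881 was 2.13, beside 1.17 to 1.23, and in hyper male 864 it was 2.37, beside 1.34 to 1.60. Slc16a10 probe A in the same hyper male 864 was 1.26, beside 0.74 to 0.82. These 3 pups, 891, 881 and 864, were the arrays of 1 slide, the only one of scan day 1, and the part of the slide in these values was not tested. Ttr was 6.07 in control female 831, beside 5.44 to 5.49, and 6.30 in hypo female 721, beside 5.21 to 5.40; both arrays were scanned on day 6, when every array had a Ttr of at least 5.90. Slc16a10 probe A in hypo+ male 546 was 0.42, beside 0.94 to 1.00, and Crym in the same pup was 2.27, beside 2.16 to 2.18. Slc16a10 probe B in hypo female 316 was 0.35, beside 0.56 to 0.63. AK165240 in hypo male 311 was 0.64, beside 0.98 to 1.02.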

How the results depend on the processing

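The number of the 9 probes called was the same as reported, or nearly so, in 194 of 209 results under other settings and in 487 of 510 with 1 array left out. As reported, probes were called only between hyper and hypo, over both sexes and in females. Most of these results therefore show 0 called staying at 0, which says little about how firm a call is. Between hyper and hypo over both sexes, 1 probe was called as reported, 0 with the scanner's log ratio, 2 among probes above the negative controls, without the litter block or without the 3 control arrays with pancreatic markers, 3 from Cy5 alone, 4 with scan day and 5 with slide as a block, and 1 to 2 with an array left out. Between hypo and control it was 2 from Cy5 alone and 0 to 1 with an array left out, and between hypo+ and hyper 1 from Cy5 alone or among probes above the negative controls and 0 to 2 with an array left out. Between hyper and control in females it was 1 with slide as a block and 0 to 1 with an array left out. Within females, hyper against hypo gave 1 with normexp or with only the compared groups, and 0 with median centring or the scanner's log ratio. From Cy5 alone Crym was called in females beside Serpina7 and Slco1a4 (Crym at -0.63, adjusted p = 0.000602 by limma). With an array left out the count was 0 to 2 within females and 0 to 1 within males. Slc16a10 probe A turned from 0.15 to -0.13 in hypo+ against hypo females with slide as a block. Over all probes the number called between hyper and hypo moved from 2186 to between 314 with median centring and 3150 with slide as a block, that between hypo and control from 391 to between 12 and 608, that between hyper and control from 285 to between 14 and 497, that between hypo+ and hypo from 1119 to between 68 and 1265, that between hypo+ and control from 242 to between 6 and 386, and that between hypo+ and hyper from 972 to between 3 and 1567, the lowest of each with median centring; without hypo+ female 601 the last 2 were 52 and 187. The causes were not tested. No paired analysis was possible because the animal numbers of the labels are unique to each pup and the pups taken as a litter shared 1 treatment, so that no pair spans the groups compared. The number of arrays and the dim reference signal of Serpina7, Crym and Slc16a10 probe A limit the precision of these values.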
